A study of Mus musculus with 9 samples.

Results

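The 9 genes described here encode the proteins that bind myosin along the thick filament, those that link thick filaments in the M-band, and the factors that fold and assemble myosin: Mybpc1, Mybpc2, Mybpc3, Mybph, Myom1, Myom2, Myom3, Smyd1 and Unc45b. They were chosen by symbol, and each was found among the 55471 Ensembl genes of the count table. RNA came from the gastrocnemius, a calf muscle, of 5 Shank3Δ11(-/-) mice (KO1 to KO5), homozygous for the Δ11 allele of the scaffold gene Shank3, and 4 Shank3(+/+) mice (WT1 to WT4), all labelled as C57BL/6 in background and taken at postnatal day 0 to 1, with 1 library per mouse. The Shank3Δ11(-/-) animals came from matings of heterozygous C57BL/6JRj mice. The allele is carried in every cell of the body, so that a difference in muscle RNA cannot be assigned to muscle cells alone. The study left KO2 and KO4 out of its analysis for too few reads, although their count totals here are not the lowest, and so KO1, KO3 and KO5 were set against the 4 Shank3(+/+) mice, and the values of KO2 and KO4 are given beside them.

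Myosin binding protein C (MyBP-C) forms transverse stripes on the thick filament and tunes how myosin heads engage actin. It exists in a slow skeletal (Mybpc1), a fast skeletal (Mybpc2) and a cardiac (Mybpc3) form. Mybph encodes the shorter, related protein MyBP-H. The M-band in the centre of the sarcomere is built from myomesins, elastic proteins that crosslink neighbouring thick filaments: Myom1 is present in all striated muscle, Myom2 (M-protein) is typical of fast fibres and Myom3 of slow and intermediate fibres. Unc45b is a muscle chaperone that works with Hsp90 to fold the myosin head, and Smyd1 is a lysine methyltransferase of striated muscle needed for the assembly of sarcomeres. At birth, mouse limb muscle still relies on embryonic and perinatal myosins, and the fast adult proteins come up in the weeks that follow.

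The libraries held between 26444372 (KO5) and 40471957 (KO4) counted reads (median 31435732). Levels are given in CPM, counts relative to library size after TMM scaling over the 9 mice. Shank3 itself was counted at 29.4, 25.8, 31.0, 35.1 and 34.4 CPM in KO1 to KO5 and at 32.9, 32.9, 32.5 and 38.5 CPM in WT1 to WT4 (log2 fold change -0.12, standard error 0.12, exact permutation p = 0.343). Reads from the rest of the gene enter this count, so it does not check the deletion. Of muscle genes, Ckm, muscle creatine kinase, stood at 3732 to 5668 CPM, and Myh8, the perinatal myosin, at 13570 to 19520 CPM. Y-linked transcripts (Ddx3y, Eif2s3y, Kdm5d and Uty) summed to 190 to 248 CPM in KO1, KO2, KO4, WT1 and WT2 and to at most 0.423 CPM in KO3, KO5, WT3 and WT4, so that 1 of the 3 Shank3Δ11(-/-) and 2 of the 4 Shank3(+/+) mice compared had them. Adipocyte markers stood apart in KO5 at 320 CPM in sum, against 0.355 to 27.4 CPM in the other mice.

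Per kilobase of exon, the scale on which genes can be compared with each other, Mybpc1 led by a wide margin at 745 ± 106 CPM per kb (SD, n = 9). This level was above that of 99.7% of the genes tested, and its range over the mice, 563 to 883 CPM per kb, did not meet that of any other of these genes. Myom2 followed at 83.3 ± 12.6 CPM per kb, Myom1 at 76.0 ± 7.92, Mybph at 63.7 ± 8.76, Smyd1 at 56.3 ± 7.95, Myom3 at 40.7 ± 7.18, Unc45b at 40.5 ± 5.09 and Mybpc2 at 29.3 ± 11.9. From Myom2 down to Mybpc2, the ranges of neighbours in this order overlapped. Mybpc3, the cardiac form, was far below at 0.192 ± 0.117 CPM per kb, a level higher than in only 5.67% of the genes tested. At birth the slow form thus made up 92.4% to 98.9% of the MyBP-C transcripts per kilobase, the fast form 1.09% to 7.62% and the cardiac form at most 0.0434%. The myomesins were more even, with Myom1 at 35.5% to 42.3%, Myom2 at 36.7% to 44.1% and Myom3 at 14.5% to 25.4% of their sum.

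**Figure D1:**
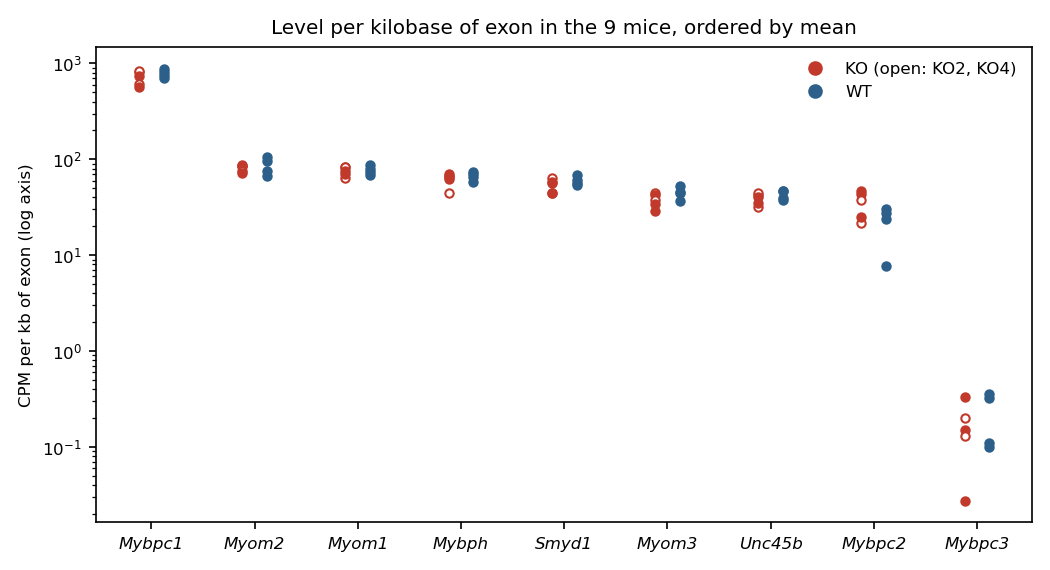
Level of each gene in CPM per kilobase of exon (log axis), 1 point per mouse, red for Shank3Δ11(-/-) with KO2 and KO4 open, blue for Shank3(+/+), genes ordered by their mean over the 9 mice. Mybpc1 lies above all others at 563 to 883, 7 genes overlap between 7.75 and 107, and Mybpc3 lies below 0.352.

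The promoters of 3 genes are shown because the data turn on them: Mybpc1 is the most abundant of the set, Mybpc2 is, of the well-expressed genes, the one that varied most between mice, and Myom3 is the single gene past the unadjusted threshold in the comparison of genotypes. The 250 bases before the RefSeq start are printed 5′ to 3′ on the gene's strand (GRCm38.p6), with capitals for matches, on either strand, to the E-box CANNTG, the MCAT element CATTCC and the MEF2 site, motifs of muscle transcription factors.

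Mybpc1, chr10:88605153-88605402, minus strand: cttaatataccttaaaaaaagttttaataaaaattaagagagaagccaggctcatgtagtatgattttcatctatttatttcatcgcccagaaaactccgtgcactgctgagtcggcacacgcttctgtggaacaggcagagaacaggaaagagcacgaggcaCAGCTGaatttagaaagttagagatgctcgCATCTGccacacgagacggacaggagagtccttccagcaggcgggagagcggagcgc

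Mybpc2, chr7:44524670-44524919, minus strand: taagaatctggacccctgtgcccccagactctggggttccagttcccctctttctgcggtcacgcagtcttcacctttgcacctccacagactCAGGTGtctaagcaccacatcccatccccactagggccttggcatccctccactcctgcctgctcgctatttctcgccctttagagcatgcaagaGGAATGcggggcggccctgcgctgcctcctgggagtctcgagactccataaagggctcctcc

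Myom3, chr4:135759465-135759714, plus strand: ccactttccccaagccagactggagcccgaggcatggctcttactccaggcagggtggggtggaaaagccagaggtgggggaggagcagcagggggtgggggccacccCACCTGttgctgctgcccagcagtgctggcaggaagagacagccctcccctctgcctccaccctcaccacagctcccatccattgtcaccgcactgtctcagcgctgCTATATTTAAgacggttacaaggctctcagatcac

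The RefSeq table held a promoter for 8 of the 9 genes, all but Myom2. An E-box stood in 7 of the 8 (66.2% of the 32851 promoters of the table), an MCAT element in 2, Mybpc2 and Mybph (12.6%), and a MEF2 site in 2, Myom3 and Mybpc3 (2.92%). In Mybpc1 the E-boxes began 87 and 57 bases before the start. In Myom3 the MEF2 site began 35 bases before the start and the E-box 142. In Mybpc2 the E-box began 157 and the MCAT element 62 bases before the RefSeq start, which was not found in the GENCODE transcripts of the gene. In the Mybpc3 promoter a MEF2 site is followed directly by an E-box. These matches describe the letters only.

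Shank3Δ11(-/-) and Shank3(+/+) mice were compared gene by gene since the study asked how the loss of Shank3 affects skeletal muscle at birth. Of the 9 genes, 1 passed an unadjusted p below 0.05 in edgeR in the 7 mice, Myom3, which was lower in Shank3Δ11(-/-). Among all 21809 genes tested, 2.08% passed this threshold, 0.917% on the lower and 1.16% on the higher side. At the study's thresholds of p below 0.05 with an FDR below 25%, applied here in edgeR, 0 of the 9 genes and 0 of all genes were called (0% of those tested). The FDR was 1.00 for each of the 9. The study itself used limma and did report differentially expressed genes at these thresholds. DESeq2 called 6 genes in all and limma-voom 0, with 0 of the 9 genes in either, and 1.95% of genes passed an unadjusted p below 0.05 in limma-voom. With KO2 and KO4 included, 0 of the 9 passed an unadjusted p below 0.05, against 2.03% of 21735 genes (0.874% lower, 1.16% higher). For none of the 9 were the mice of the genotypes apart without overlap, against 2.84% of all genes in the 7 mice (1.30% lower, 1.54% higher) and 0.686% in the 9 (0.363% lower, 0.322% higher). The fold changes lay below 0 for 8 genes and above 0 for Mybpc2, while 11395 of all 21809 genes lay below 0. Of the 8, Mybpc3, Mybph, Myom1 and Myom2 were within 1 standard error of 0. The median of the 9 genes was -0.14 on the log2 scale, against -0.01 over all genes tested. That median was -0.14 with all 9 mice, against 0.00 over all genes.

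**Figure D2:**
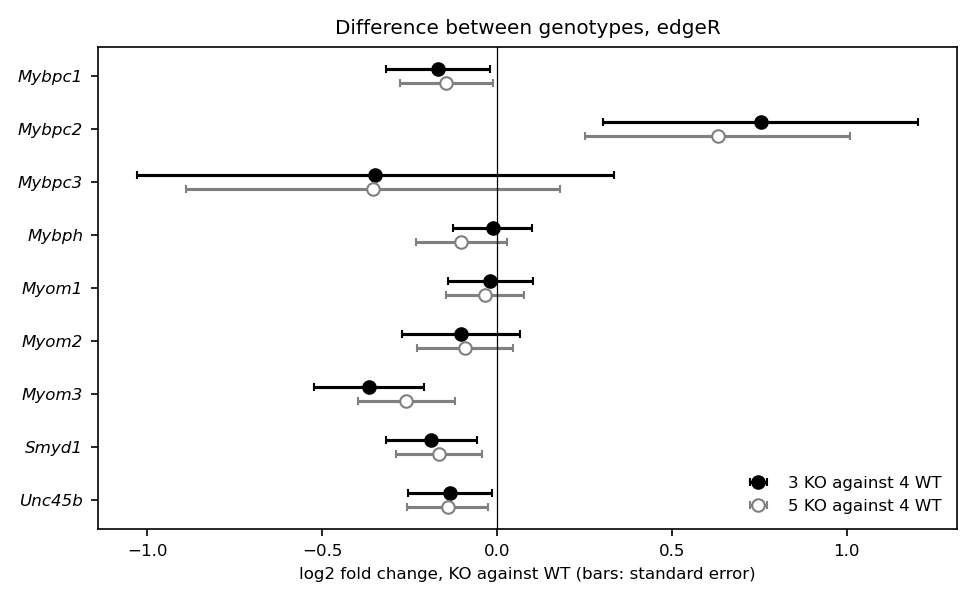
Log2 fold change of each gene, Shank3Δ11(-/-) against Shank3(+/+), from edgeR, with bars of 1 standard error, for the 7 mice compared (black) and for all 9 (open). Mybpc2 lies at 0.75 with a standard error of 0.45 and Mybpc3 has the widest bars, whereas Myom3 at -0.37 is the gene farthest below 0 relative to its error.

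Mybpc1, the slow MyBP-C, was counted at 3657, 3797, 3357, 2751 and 2548 CPM in KO1 to KO5 and at 3411, 3191, 3997 and 3648 CPM in WT1 to WT4. KO4 and KO5 lay below every other mouse, while KO1, KO2 and KO3 fell within the range of Shank3(+/+). The means were 3187 ± 574 CPM for the 3 Shank3Δ11(-/-) mice compared and 3562 ± 345 CPM for Shank3(+/+) (± SD, n = 3 and n = 4). On the log2 scale the fold change was -0.17 (standard error 0.15, 2-sided exact permutation test p = 0.343). It ranged from -0.28 without KO1 to -0.034 without KO5, and was -0.10 without WT3.

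Mybpc2 (ENSMUSG00000038670, chromosome 7 from 44501699 to 44524656), the fast MyBP-C, had the largest spread of the well-expressed genes. It was counted at 156, 78.6, 89.3, 136 and 168 CPM in KO1 to KO5 and at 85.8, 28.0, 100 and 110 CPM in WT1 to WT4. KO1, KO4 and KO5 were above every Shank3(+/+) mouse, KO2 and KO3 were within their range, and WT2 was far below all others. The log2 fold change was 0.75 (standard error 0.45, exact permutation test p = 0.229), and 0.63 with all 9 mice (standard error 0.38, exact p = 0.127). Without WT2 it was 0.47 (standard error 0.22). An antisense gene, Gm44646, shares exon sequence with Mybpc2, and since it is not stated whether strand was used in counting, reads of the 2 genes may not have been told apart there: 2.69% of the 50-base words of Mybpc2 transcripts also occur in other genes. The same limit holds, through genes of the opposite strand, for Unc45b (6.95%, Unc45bos and Slfn5os), Mybpc1 (4.36%, Gm48752) and Myom1 (1.51%, Myl12a).

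Mybpc3, the cardiac MyBP-C, was barely detected, with 3 to 45 reads per mouse. The level was 0.627, 0.544, 1.39, 0.841 and 0.114 CPM in KO1 to KO5 and 0.462, 0.414, 1.33 and 1.46 CPM in WT1 to WT4. KO3, WT3 and WT4 were high, KO5 was low, and the genotypes overlapped (log2 fold change -0.35, standard error 0.68, exact permutation p = 0.629). The log2 fold change was -1.26 without KO3 and 0.13 without KO5. Of the other cardiac markers, the troponin Tnni3 was at 1.66 to 4.02 CPM and the atrial peptide Nppa at 0.103 to 0.339 CPM, with Nppb and Myl7 listed at 0 counts in some mice. Myh6, the alpha cardiac myosin, was far higher at 138 to 300.3 CPM and made up most of the cardiac sum of 144 to 307 CPM.

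Mybph, the gene of MyBP-H, was counted at 164, 154, 153, 103 and 144 CPM in KO1 to KO5 and at 133, 151, 171 and 162 CPM in WT1 to WT4. Apart from KO4, which was lowest, the mice of both genotypes lay together. The log2 fold change was -0.01 (standard error 0.11, exact permutation p = 1.00), small against its error. Of the 50-base words of Mybph transcripts, 43.9% also occur in Adora1, which lies on the opposite strand, so the count of Mybph rests on the handling of overlapping genes and is uncertain.

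**Figure D3:**
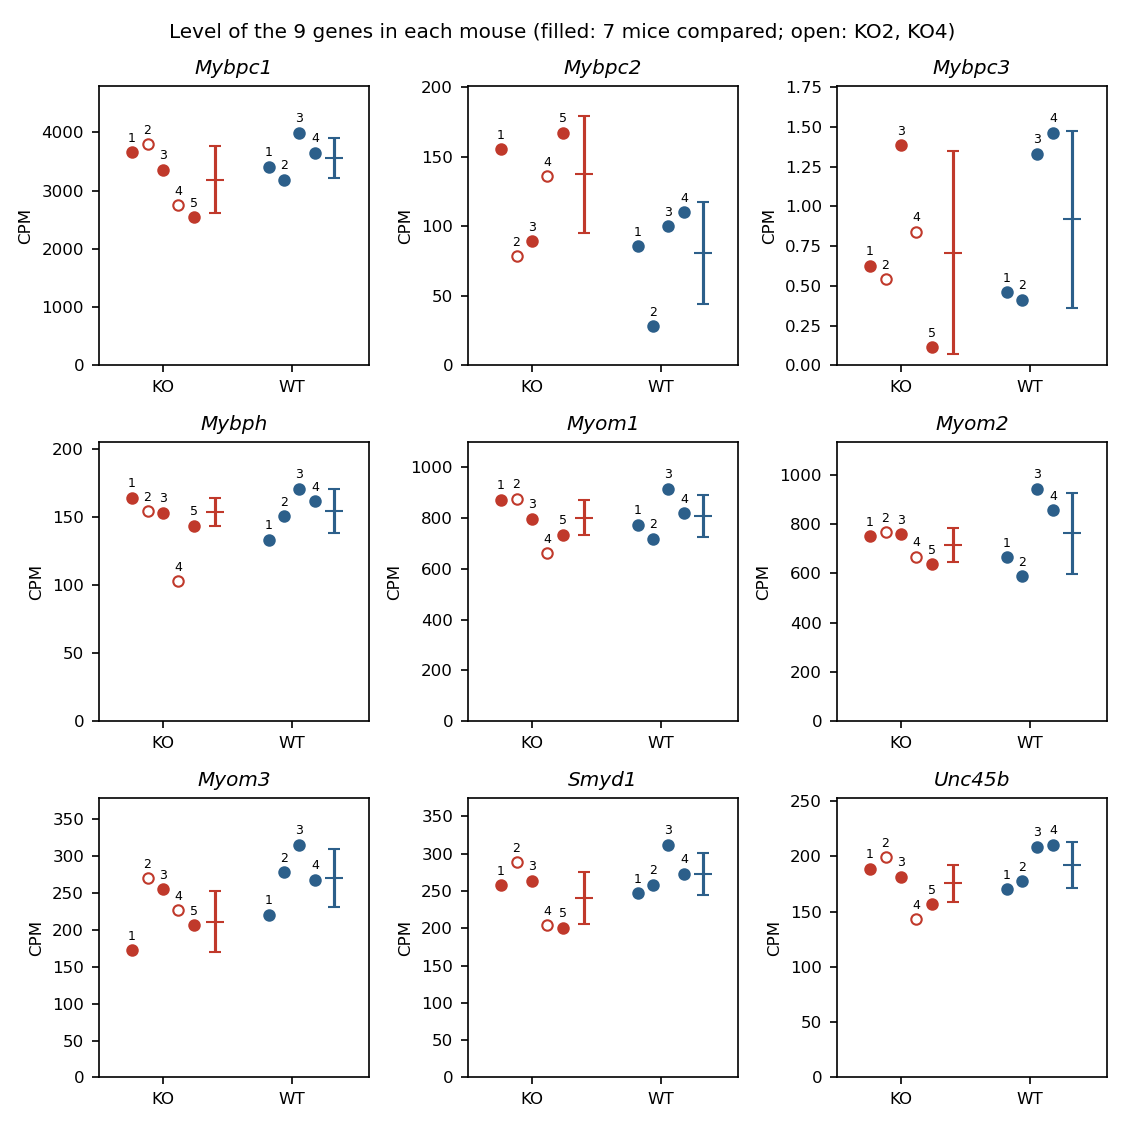
Level in CPM of each of the 9 genes in each mouse, numbered as in the labels, with the axis of each panel starting at 0, where filled points are the 7 mice compared, open points KO2 and KO4, and bars give the mean and SD of the filled points. Genotypes overlap in every panel, and WT2 at 28.0 CPM of Mybpc2 and KO4 at 103 CPM of Mybph stand off from their groups.

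Among the M-band genes, Myom1, the myomesin of all striated muscle, had the smallest fold change. It was counted at 871, 874, 796, 661 and 734 CPM in KO1 to KO5 and at 772, 718, 914 and 819 CPM in WT1 to WT4. The log2 fold change was -0.02 (standard error 0.12, exact permutation p = 0.943). The gene count joins all splice forms, so that the embryonic form of myomesin cannot be told from the adult form.

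Myom2, the M-protein of fast fibres, was counted at 751, 768, 760, 668 and 638 CPM in KO1 to KO5 and at 666, 589, 944 and 856 CPM in WT1 to WT4. The Shank3(+/+) mice formed the extremes, WT2 lowest and WT3 highest, with all Shank3Δ11(-/-) mice between them. The log2 fold change was -0.10 (standard error 0.17, exact permutation p = 0.714). It was -0.21 without WT2 and turned to 0.025 without WT3. The difference between genotypes went in opposite directions in mice with and without Y-linked transcripts. With them, KO1, KO2 and KO4 at 668 to 768 CPM were above WT1 and WT2 at 589 to 666 CPM. KO4 at 668.1 CPM lay close to WT1 at 666.3 CPM, and KO2 and KO4 are outside the main comparison. In mice without Y-linked transcripts, KO3 and KO5 at 638 to 760 CPM were below WT3 and WT4 at 856 to 944 CPM. The interaction of genotype and Y-linked transcripts over the 9 mice, added after the values were seen, was 0.58 on the log2 scale (standard error 0.21, FDR = 0.980 in edgeR). Of the 9 genes, Myom2 alone passed an unadjusted p below 0.05 in this test, as did 4.08% of all genes, while 0.0322% were called. Genotypes that lay apart in opposite directions, as for Myom2, were found in 3.13% of all genes. The interaction was above 0 for all 9 genes, from 0.15 for Mybph to 1.48 for Mybpc3. KO3 and KO5 also lay below WT3 and WT4 for Mybpc1, Mybph, Myom1, Myom3, Smyd1 and Unc45b, a layout whose share over all genes was not counted.

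Myom3 (ENSMUSG00000037139, chromosome 4 from 135759715 to 135815564), the myomesin of slow and intermediate fibres, was counted at 173, 270, 255, 226 and 206 CPM in KO1 to KO5 and at 221, 278, 315 and 268 CPM in WT1 to WT4. KO1 and KO5 were below every Shank3(+/+) mouse, while KO2, KO3 and KO4 were within their range. The means were 211 ± 41.4 CPM for the 3 Shank3Δ11(-/-) mice compared and 270.5 ± 39.1 CPM for Shank3(+/+) (± SD, n = 3 and n = 4), and the fitted fold change was 0.776. This is -0.37 on the log2 scale (standard error 0.16, unadjusted p = 0.0412 and FDR = 1.00 in edgeR), while the exact permutation test gave p = 0.114, where the smallest p that 3 against 4 mice allow is 0.0286. With KO2 and KO4 it was -0.26 (standard error 0.14, unadjusted p = 0.0847 in edgeR, exact permutation test p = 0.143).

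In edgeR, Myom3 no longer passed an unadjusted p below 0.05 without KO1 (log2 fold change -0.24, standard error 0.16), KO5 (-0.35, 0.19), WT2 (-0.35, 0.18), WT3 (-0.28, 0.16) or WT4 (-0.37, 0.17). It still passed without KO3 (-0.52, 0.16) or WT1 (-0.45, 0.16). In mice with Y-linked transcripts the mean was 223 CPM in Shank3Δ11(-/-) and 249 CPM in Shank3(+/+), and in mice without them 230 and 292 CPM. KO1 and KO5, the lowest mice, also had the highest adipocyte sums, 27.4 and 320 CPM, and KO1 the highest sum of erythroid genes, 4363 CPM against 918 to 1647 CPM in the other mice, values whose part in the result was not tested. In bulk RNA, fewer fibres of a type and less RNA per fibre cannot be told apart.

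The assembly factors, like Mybpc1, were lowest in KO4 and KO5. Smyd1, the methyltransferase, was counted at 258, 288, 264, 204 and 201 CPM in KO1 to KO5 and at 247, 258, 312 and 273 CPM in WT1 to WT4. The other 7 mice lay together above these 2 (log2 fold change -0.19, standard error 0.13, exact permutation p = 0.314). Without KO5 the log2 fold change was -0.075 and without WT3 -0.11. Unc45b, the myosin chaperone, was counted at 189, 199, 182, 143 and 157 CPM in KO1 to KO5 and at 170, 178, 209 and 211 CPM in WT1 to WT4, again with the genotypes overlapping (log2 fold change -0.14, standard error 0.12, exact permutation p = 0.314). It was -0.063 without KO5, -0.083 without WT3 and -0.082 without WT4. Of the 9 genes, KO4 and KO5 each had the lowest value of all mice for 3, and WT3 the highest for 6. The summed level of the set was 4892 CPM in KO4 and 4794 CPM in KO5, against 5391 to 6965 CPM in the others, most of it Mybpc1. KO4 also had the highest sums of cartilage and bone markers (266 CPM, against 30.6 to 128 CPM in the others) and of fibroblast markers (21850 CPM, against 10920 to 17990 CPM). KO5 had the highest sums of adipocyte markers and of Schwann cell markers (605 CPM, against 291 to 375 CPM). The part of these cells in the low levels was not tested.

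Ratios within a mouse do not depend on library scaling and set the slow, fast and common forms against each other. The log2 ratio of Mybpc1 to Mybpc2 per kilobase was 4.23, 5.27, 4.91, 4.01 and 3.60 in KO1 to KO5 and 4.99, 6.51, 4.99 and 4.72 in WT1 to WT4. It was thus lower in KO1, KO4 and KO5 than in any Shank3(+/+) mouse, and highest in WT2. The difference was -1.06 (exact permutation test, 2-sided, p = 0.143, adjusted p = 0.286 over the 4 ratios), and -0.90 with all 9 mice (exact p = 0.103, adjusted p = 0.254). Without WT2 it was -0.66. The log2 ratio of Myom3 to Myom1 was -1.54, -0.90, -0.85, -0.75 and -1.04 in KO1 to KO5 and -1.02, -0.58, -0.74 and -0.82 in WT1 to WT4. KO1 lay lowest, and without it the difference of -0.36 (exact permutation p = 0.114, adjusted p = 0.286) shrank to -0.16. The ratio of Myom2 to Myom1 differed by -0.06 (exact permutation p = 0.600) and that of Mybph to Mybpc2 by -0.89 (exact permutation p = 0.257), or by -0.44 without WT2. The difference of Myom2 to Myom1 ranged from -0.13 without WT2 to -0.01 without WT4. None of the 4 ratios passed 0.05 in the 7 mice or in the 9.

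**Figure D4:**
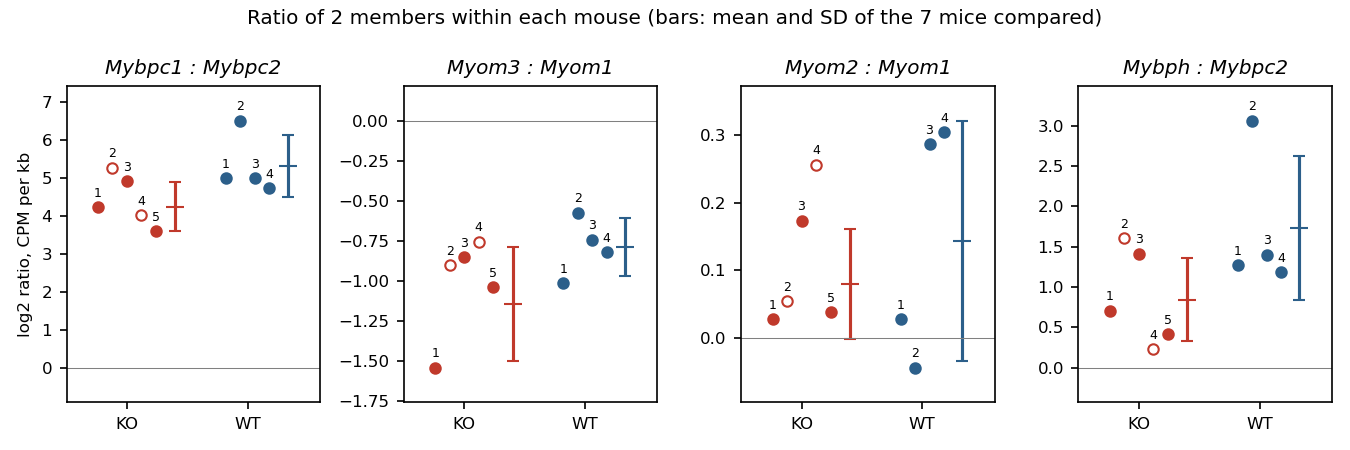
Log2 ratio per mouse of the named pairs of genes, in CPM per kilobase of exon, numbered and filled as in the plot of levels by mouse, with the mean and SD of the 7 mice compared. WT2 stands above all mice in both ratios to Mybpc2, at 6.51 and 3.06, and KO1 below all in Myom3 to Myom1, at -1.54.

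A list of 44 genes that bind or work with these proteins gives the surroundings of the set. Of 43 tested, 2 were lower and 0 higher at an unadjusted p below 0.05 in the 7 mice (0.917% and 1.16% over all genes), and their median fold change was -0.04 on the log2 scale. The 2 were Myh6 (-0.64, standard error 0.22, exact permutation p = 0.0857), and Myl3, the slow ventricular light chain (-0.41, standard error 0.16, exact permutation p = 0.0571). Both had FDR = 1.00 in edgeR, and with all 9 mice, or without KO5, 0 of the 43 passed. Without KO3, 6 passed on the lower and 1 on the higher side, where 794 of all 22244 genes tested passed in either direction. Without KO5 Myh6 was at -0.49 and Myl3 at -0.24, and without KO1 Myh6 was at -0.99. Ttn (titin), which spans from the Z-disc to the M-band, and Obsl1, a cytoskeletal adaptor at the M-band, had log2 fold changes of 0.05 and -0.25, with standard errors of 0.12 and 0.13. Ckm, which also sits at the M-band, was at 0.05 (standard error 0.16). Hsp90aa1, the partner of Unc45b, was at 0.00 (standard error 0.11), and Naca, whose muscle form binds Smyd1, at -0.13 (standard error 0.11).

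Genes of slow fibres were lower in Shank3Δ11(-/-) in their fitted value for 10 of the 10 tested (median -0.34 on the log2 scale), as were 11395 of all 21809 genes. On that side 3 of the 10, Tnnt1, Tnnc1 and Myl3, passed an unadjusted p below 0.05 in edgeR, against 0.917% over all genes. Tnnt1, slow troponin T, was counted at 617, 610, 765, 856 and 500 CPM in KO1 to KO5 and at 704 to 853 CPM in Shank3(+/+) (log2 fold change -0.34, standard error 0.15, exact permutation p = 0.114). KO1, KO2 and KO5 were below every Shank3(+/+) mouse, whereas for Myom3 KO2 was the highest of the Shank3Δ11(-/-) mice. Myh7, the slow myosin, was counted at 484, 600.4, 693, 713 and 336 CPM in KO1 to KO5 and at 507 to 867 CPM in Shank3(+/+), a fitted log2 change of -0.48 (standard error 0.26, exact permutation p = 0.20). KO5 stood apart in these genes, with a summed level of 3241 CPM against 4392 to 5583 CPM in the other 8 mice, and it was also the mouse with the highest adipocyte and Schwann cell sums, whose part was not tested. Without KO5 the 10 genes stayed below 0 with a median of -0.22, 0 of them passed, and Tnnt1 was at -0.20, Tnnc1 at -0.27 and Myh7 at -0.26. Also without WT4 0 of the 10 passed, without WT2 1 passed, without KO1 or WT3 2 passed, and without KO3 6 passed. With all 9 mice, 1 of the 10 passed, Tnnc1 (-0.36, standard error 0.14, exact permutation p = 0.0635), and 0 had an FDR below 25% in either fit. The level of Mybpc1, which is not in this list, was high in KO1, so it did not share the order of Tnnt1 over these mice.

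Of 12 fast fibre genes, 2 were higher at an unadjusted p below 0.05 in edgeR, Actn3, the fast alpha-actinin of the Z-disc (0.62, standard error 0.26, exact permutation p = 0.143), and Pvalb, the calcium buffer parvalbumin (1.23, standard error 0.47, exact permutation p = 0.114), and the median of the list was 0.07. Over all genes, 1.16% passed on the higher side. Pvalb was counted at 25.4, 25.9, 47.7, 119 and 103 CPM in KO1 to KO5 and at 15.6 to 32.8 CPM in Shank3(+/+), so that KO3, KO4 and KO5 were above every Shank3(+/+) mouse. Without KO5 Pvalb was at 0.54, Actn3 at 0.33 and the median at 0.01, and 0 of the 12 passed, as was the case without WT1 or WT2. Without KO3 or WT4, 1 passed, where 794 of 22244 and 451 of 21558 of all genes passed in either direction. Actn3, Pvalb, Tnnc1, Tnnt2, Tpm3 and the fast genes set beside Actn3 were named after their values were seen. Actn3 was lowest in WT2 at 218 CPM and highest in KO5 at 716 CPM, the mice with the lowest and highest Mybpc2. The rest of the fast list did not share this order. Among the Shank3(+/+) mice, WT2 was lowest for Myh1, Myh2, Myh4 and Atp2a1 but highest for Mylpf, Myl1, Tnnt3 and Casq1. Myh4, the fast 2B myosin, and Mylpf, the fast light chain, had log2 fold changes of -0.04 (standard error 0.17) and 0.09 (standard error 0.14). Of 8 developmental genes, 1 passed on the lower side, where 0.917% of all genes did, the embryonic and cardiac troponin Tnnt2 (-0.28, standard error 0.12, exact permutation p = 0.0286, the smallest possible, FDR = 1.00 in edgeR). With all 9 mice Tnnt2 again passed, at -0.25 (standard error 0.09, exact permutation p = 0.0159, FDR = 1.00 in edgeR), as did 0.874% of all genes on the lower side. Its genotypes did not overlap in the 7 mice or the 9, where 1.30% and 0.363% of all genes lay apart on the lower side. Tnnc1 and Tpm3 of the slow list also lay apart in the 7 mice, Tpm3 with the same exact permutation p = 0.0286, but overlapped in the 9. The median of the developmental list was -0.23 on the log2 scale, with 7 of the 8 below 0. Without KO5 that median was -0.08 and 0 of the 8 passed, Tnnt2 being at -0.21. It also did not pass without KO1, WT2 or WT4. Without KO3, 3 of the 8 passed, where 794 of all 22244 genes tested did in either direction. Myh3, the embryonic myosin, had -0.43 (standard error 0.26), which rested on KO5 at 2095 CPM against 4174 to 5787 CPM in the other 8 mice and was -0.14 without it. Myh8 had 0.11 (standard error 0.14), and -0.02 without KO5.

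**Figure D5:**
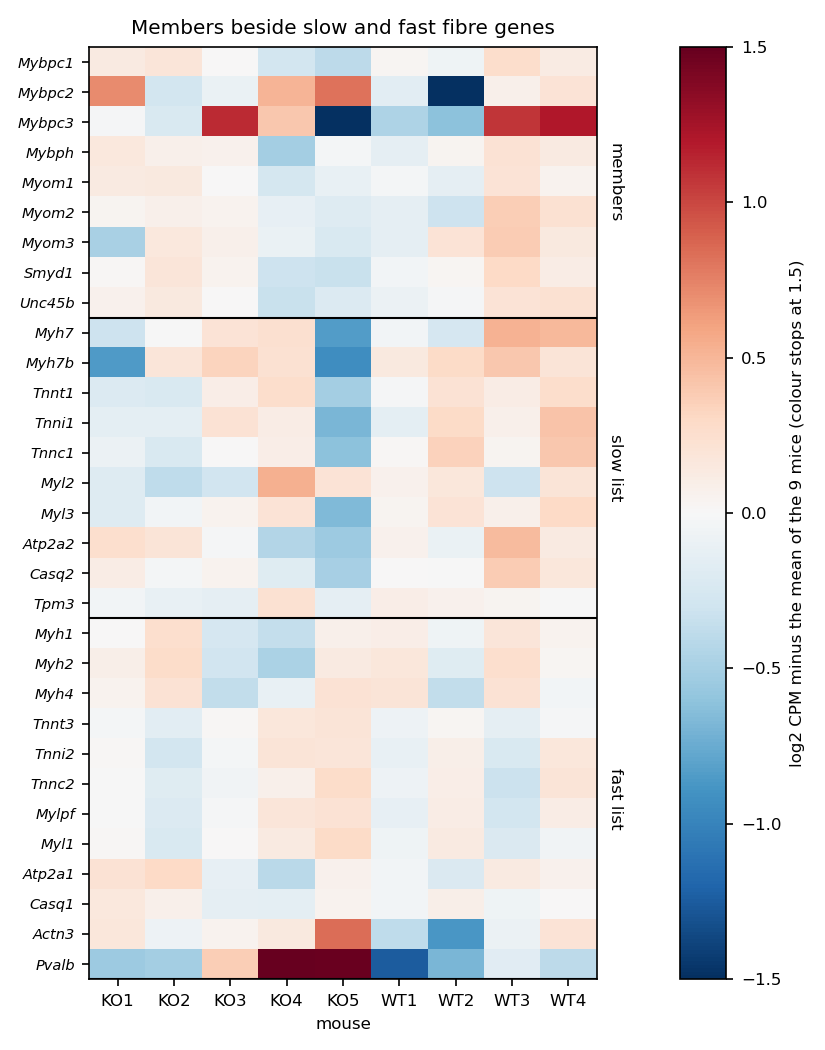
Log2 CPM minus the gene's mean over the 9 mice, for the 9 genes and for the lists of slow and fast fibre genes (colour stops at 1.5). Mybpc2 and Actn3 are lowest in WT2 and highest in KO5, while KO1 and KO5 are lowest for Myom3, and KO5, KO2 and KO1 for Tnnt1. No other gene of the fast list is lowest in WT2.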

How the data were processed

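The authors mapped reads to mm10 with HISAT2, kept concordant reads and deposited raw counts per Ensembl gene from featureCounts, 1 column per mouse. The sources used here do not give annotation release, strandedness or the treatment of multiply mapped reads. The 9 genes and all lists were chosen with earlier results of these data known. Genes were filtered with filterByExpr (minimum count 10, minimum total 15), scaled by TMM and tested with a robust quasi-likelihood test in edgeR 4.0.16 (R 4.3.3), the 3 Shank3Δ11(-/-) mice kept by the study against all 4 Shank3(+/+) mice, with Benjamini-Hochberg adjustment over all genes tested. Standard errors follow from the fold change and its F statistic. Permutation tests on log2 CPM (prior count 2) were exact and 2-sided. The fit was tested on simulated data. Labels do not state litters, so p-values measure the spread between these mice. Exon lengths and positions are those of GENCODE M21 (GRCm38), promoters those of RefSeq. Protein sequences were not used here. The values of 1 gene of the partner list are not reported here.

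The genes named were all 9 members, fixed genes of the partner and fibre lists, partners of smallest unadjusted p, and the 3 genes nearest in pattern to the 3 most variable members. Actn3, Pvalb, Tnnc1, Tnnt2, Tpm3, the fast genes set beside Actn3 and the cell type markers were named after their values were seen. Leaving out mice in the lists was also added after that. Alternatives were all 9 mice, other filters and normalizations, DESeq2 1.42.0, limma-voom (limma 3.58.1), covariates, the replicate number as a block, and leaving out mice. Same-numbered mice of both genotypes had correlations of their deviations of 0.373, 0.0524, 0.357 and 0.101 for numbers 1 to 4. For KO1, KO3 and KO4 the most correlated Shank3(+/+) mouse was the one of the same number, and for KO2 it was another. No source states a pairing, so the main comparison does not pair the mice and the replicate block is an alternative. Whether same-numbered mice share a litter or batch was not tested. Figures were drawn with matplotlib 3.10.9.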

Additional observations from a re-analysis of the deposited data

Results flagged for a closer look

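Of 26 groups examined for a mouse far from the rest (9 genes and 4 ratios in each genotype), 3 held such a mouse, where chance gives about 1 in 20. KO4 was far below the other Shank3Δ11(-/-) mice in Mybph, with a gap of 0.717 of the group's range on the log2 scale. WT2 stood above the other Shank3(+/+) mice in the ratio of Mybpc1 to Mybpc2 (gap 0.850 of the range) and in that of Mybph to Mybpc2 (0.884 of the range), both through its Mybpc2 of 28.0 CPM. The genotype difference of Myom2 differed between mice with and without Y-linked transcripts, by 0.58 on the log2 scale (interaction FDR = 0.980 in edgeR), every Shank3Δ11(-/-) mouse lying above the Shank3(+/+) mice with them (3 of 3) and below without them (2 of 2). The same layout, apart without overlap in opposite directions, was seen in 3.13% of all genes tested. The interaction was above 0 for all 9 genes, and the part without Y-linked transcripts was shared by Mybpc1, Mybph, Myom1, Myom3, Smyd1 and Unc45b.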

How the results depend on the processing

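The count of the 9 genes past an unadjusted p below 0.05 was 1 in the 7 mice and 0 with all 9 mice, with the Y-linked level as a covariate in the 9 mice, and, chosen after seeing the data, with the 9 mice without KO1 or without KO5. It ranged from 0 to 1 with each of the 7 mice left out. In no alternative was any of the 9 called at an FDR below 25%. Over all genes, 0 were called and 453 passed an unadjusted p below 0.05. The called genes became 1 without the filter, 6 in DESeq2, 9 with the replicate block in the 7 mice and 2 in the 9, 7 in the 9 mice without KO1, and 0 to 15 with each mouse left out. Those passing became 972 of 37614 without the filter, 844 with the replicate block in the 7 mice, 300 in the 9 mice without KO5, and 224 to 968 with each mouse left out. The cause was not tested. With the replicate block Myom3 had a log2 fold change of -0.34 in the 7 mice and -0.24 in the 9, past an unadjusted p of 0.05 in both, where the numbers were not shown to pair the mice. Over its 22 alternatives Myom3 stayed below 0, from -0.52 to -0.18, and passed in 13. With the Y-linked level as a covariate it was -0.44 in the 7 mice, where it passed with its smallest unadjusted p, and -0.25 in the 9, where it did not. Signs turned, each time by less than 1 standard error from 0, for Mybpc3 (0.20 with the replicate block in the 7 mice, -1.26 to 0.13 with a mouse left out), Mybph (0.067 with the replicate block in the 7 mice, -0.072 to 0.049 with a mouse left out), Myom1 (-0.083 to 0.055 with a mouse left out) and Myom2 (-0.21 to 0.025). With the replicate block in the 9 mice the sign did not turn for Mybpc3 (-0.037) or Mybph (-0.12). The mice behind the turns were KO5 for Mybpc3, KO5, WT3 and WT4 for Mybph (0.030, 0.049 and 0.016 without them), KO5 and WT3 for Myom1 (0.036 and 0.055) and WT3 for Myom2. Mybpc1, Mybpc2, Smyd1 and Unc45b kept their sign in all 22 and passed in none, though their sizes moved, with the replicate block in the 7 mice to -0.080, 0.34, -0.093 and -0.030. The 4 ratios kept their sign in each of 9 alternatives and passed with all 9 mice in none. With a mouse left out the exact test cannot go below 0.0667 (2 against 4) or 0.1 (3 against 3), so these alternatives could not pass. The replicate block, a value with no test, gave -0.42 for Mybpc1 to Mybpc2 and -0.28 for Mybph to Mybpc2. The lowest count was that of Mybpc3 in KO5, 3 reads.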

Other observations

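The genes whose pattern over the 9 mice came closest to a member are given as a description. They were picked from all genes tested by the smallest root mean square difference of centred log2 CPM. Myom3 was nearest to Slc24a3, a sodium, potassium and calcium exchanger (0.0743 on the log2 scale, 10.8 CPM in KO1 and 18.0 CPM in WT3), then Parp16 (0.102) and Gm19777 (0.118). Mybpc2 was nearest to Pate2 (0.307), to Gm44646 (0.336), the antisense gene that overlaps it, at 16.2 CPM in KO5 and 3.31 CPM in WT2, and to Ctnnd2 (0.352). Mybpc3 was nearest to Hif3a, a hypoxia-inducible factor (0.236), at 15.8 CPM in KO5 and 114 to 116 CPM in KO3 and WT3, followed by Muc20 (0.258) and Slc30a10 (0.263).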
